A study of Mus musculus with 2 samples.

Results

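Lung fibroblasts, the cells that lay down the connective tissue of the alveolar walls and of the sheaths around airways and vessels, made up 58 of the 4688 cells kept from 2 single-cell libraries of digested mouse lung. A cell barcode was kept with at least 200 detected genes and a mitochondrial share of its UMIs (unique molecular identifiers, each standing for 1 captured RNA molecule) of up to 15%. A kept barcode was called a fibroblast when at least 3 of 8 genes (Col1a1, Col1a2, Col3a1, Dcn, Mfap4, Tcf21, Inmt, Pdgfra) had a UMI and 5 genes of other lineages (Msln, Upk3b, Pecam1, Ptprc, Marco) had none. The cells were therefore chosen by their own expression, and the values of those 13 genes describe the choice and support nothing else.

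Both libraries came from C57BL/6 mice with the I73T mutation of SP-C, the surfactant protein made by alveolar type 2 cells. In this model, per the submitters, 1 oral dose of tamoxifen (175 mg/kg in corn oil) cuts out a neomycin cassette so that more mutant SP-C is made, corn oil alone served for comparison, and injured lungs were taken at 14 days. The recombinase that tamoxifen activates, the age of the mice and the number of animals behind each library are not given in the sources used here. The groups were taken from the sample titles, 1 injured and 1 control, but the treatment tags run the other way, with the titled injured library tagged as untreated and the titled control library as given tamoxifen. Every direction below therefore rests on the titles, and transcripts of the mutant and normal SP-C alleles cannot be told apart in a gene count. Lungs were lavaged and perfused, cut loose with collagenase D for 30 min and passed through a 70 um mesh, so that only cells freed by that digestion were counted. With 1 library per group no difference has a replicate check, no test was made, and all 95% intervals cover counting error only.

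As background, fibroblasts of the alveolar wall carry the transcription factor Tcf21 and the methyltransferase Inmt, support neighbouring type 2 cells with growth factors and store lipid and retinoid. Adventitial fibroblasts lie in the cuffs around bronchi and large vessels, carry Pi16, Cd34, Clec3b and the microfibril protein Mfap5, and are rich in fibrillar matrix and complement. In injured lung, fibroblasts are known for making fibrillar collagen, elastin, crosslinking enzymes and protease inhibitors, and for signalling to leukocytes with chemokines.

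The injured library held 2702 barcodes and 22314603 UMIs, with 2346 cells kept at a median of 3361.5 UMIs. The control library held 2674 barcodes and 17207816 UMIs, with 2342 cells kept at a median of 4513.5 UMIs. The libraries shared 1 barcode sequence, which was in no fibroblast. The doublet scoring marked a share preset by the number of cells, 1.88% of the kept cells of each library, with no fibroblast among them. Scgb1a1, the secretory protein of club cells, had UMIs in 8 of 11 injured and 46 of 47 control fibroblasts, and from its level free RNA was estimated at 1.79% of the UMIs of a median fibroblast in injured and 4.10% in control.

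Fibroblasts by this rule were scarcer in the injured library. They were 11 of 2346 kept cells (0.469%, exact 95% interval 0.234 to 0.837%) against 47 of 2342 control cells (2.01%, 1.48 to 2.66%). With at least 3 of 6 marker genes, leaving out Tcf21 and Inmt, 10 injured and 33 control cells were called. A part of the control cells thus met the rule only through Tcf21 or Inmt. The excluding genes removed many cells that carried 3 or more of the 8 marker genes, 33 of 44 injured and 42 of 89 control ones. In the injured library 29 of the removed cells carried Msln and 26 carried Upk3b, both made by the mesothelial cells that cover the lung. In the control library 31 carried Pecam1 of endothelial cells, 26 of them with no other excluding gene. The part of these removed cells in the difference in share was not tested. Among barcodes that failed the filters, 2 of 356 injured (0.562%) and 9 of 332 control (2.71%) met the same gene rule.

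The fibroblasts were shallow and uneven. Injured fibroblasts had from 695 to 25299 UMIs, with a median of 1687 UMIs and 827 genes per cell, and control fibroblasts from 504 to 18225, with medians of 2247 UMIs and 1032 genes. In all, injured fibroblasts gave 49648 UMIs and control fibroblasts 219668. A single cell of 25299 UMIs supplied 51.0% of the injured sum, whereas the deepest control cell supplied 8.30% of its own. The main comparisons between libraries are therefore given with and without that cell, and some also with each cell given the same weight. The median mitochondrial share was 4.91% in injured and 6.43% in control fibroblasts.

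Genes outside the rule were those of connective tissue cells, given as a description. Mgp, the matrix Gla protein that keeps soft tissue from calcifying, had UMIs in 11 of 11 injured and 45 of 47 control fibroblasts, against 6.45% of 62 injured and 7.33% of 341 control B cells, which do not make it. Those B cells were deeper, with medians of 3433 and 4553 UMIs. Thinned to 1000 UMIs a cell, Mgp was seen in 7 of 7 and 33 of 35 fibroblasts and in 1.61% and 2.95% of the B cells. The 15 genes with the highest fibroblast level over the other kept cells in both libraries were, beside the rule genes Col1a1, Col1a2, Col3a1 and Mfap4, the matrix genes Mgp, Eln, Mfap5 and Col14a1, the secreted proteins Clec3b, Pi16, Timp3, Serping1, Serpinf1 and Nbl1, and the haem protein Cygb. Eln, the gene of elastin, stood at 7855 CPM (counts scaled to a sum of 1000000) in injured and 1420 CPM in control fibroblasts, against 103 and 20.3 CPM in the other cells.

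Most marker lists of other lineages were low, but some stood above their level in the other cells. The defining genes of lymphatic endothelium, B cells, T cells and type 2 cells were at 0 in all injured fibroblasts, and the macrophage list came to 262 CPM in injured and 50.1 CPM in control fibroblasts against 11767 and 5312 CPM in the other cells. The type 1 cell list (Ager, Hopx, Rtkn2) had 1 UMI in injured and 47 in control fibroblasts, the latter spread over 15 cells, and its control level of 214 CPM was above the 185 CPM of the other cells. The smooth muscle list had 76 UMIs in injured fibroblasts (1531 against 44.5 CPM in other cells), 72 of them in 1 cell, and 82 in control fibroblasts (373 against 14.3 CPM), spread over 21 cells with at most 15 in any. The pericyte list had 6 and 89 UMIs, with 51 of the latter in 1 cell (405 against 24.1 CPM in other control cells). The mesothelial list had 1 and 27 UMIs, the latter in 9 cells (123 against 44.5 CPM). Among control fibroblasts 3 cells went against the name. The first, of 4294 UMIs, had 2389 UMIs of Scgb1a1 and only 5 UMIs over 3 of the 8 marker genes. The second, of 4604 UMIs, had 17 UMIs of the pericyte gene Cox4i2 and 7 of Pdgfrb. The third, of 13448 UMIs, had 7 UMIs of the mesothelial transcription factor Wt1 beside 120 of Dcn. In the injured library, the cell of 9401 UMIs had 22 UMIs of Acta2 and 49 of Tagln, 2 smooth muscle genes that activated fibroblasts also switch on, with Myh11, Cnn1 and Actg2 at 0 in all 11 cells. With 8 further excluding genes of other lineages, this cell and that of 1687 UMIs dropped out, leaving 9 injured cells of 38560 UMIs. The part of these markers and cells in the differences between libraries was not tested, and values without the 3 control cells are in the closing section.

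At the edge of the rule, 4 injured and 15 control cells had exactly 3 of the 8 genes, with median depths of 1382.5 and 1051 UMIs. Just outside it, 8 injured and 12 control cells had exactly 2, with medians of 1053 and 946.5 UMIs and none of the excluding genes.

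**Figure D1:**
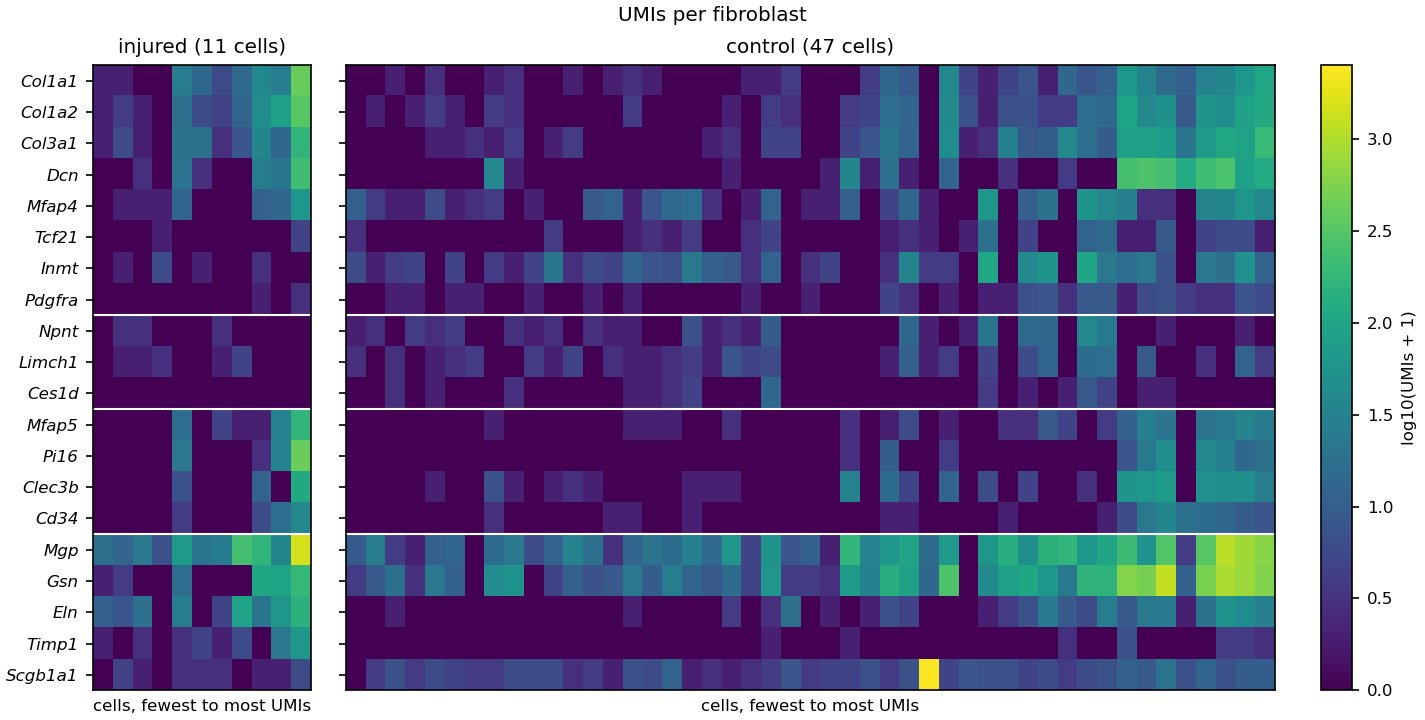
UMIs of 20 genes (rows) in each of the 11 injured and 47 control fibroblasts (columns, ordered from fewest to most UMIs within a library), coloured by log10 of UMIs plus 1. White lines part the 8 rule genes, 3 alveolar genes, 4 adventitial genes and 5 others; Inmt fills most control columns and few injured ones, and the last injured column is the cell of 25299 UMIs.

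The 8 marker genes split by role between the libraries, as a description since they chose the cells. Col1a1, the alpha 1 chain of type I collagen (GRCm38 chr11:94936224-94953042), had in the 11 injured cells a lowest count of 0, a median of 13 and a highest of 411 UMIs, and in the 47 control cells 0, 1 and 107. Per 10000 UMIs of a cell the median was 28.7 in injured and 8.62 in control fibroblasts, and the ranges overlapped. Summed, Col1a1 came to 10796 CPM in injured and 2162 CPM in control cells, a log2 ratio of 2.31 that was 1.24 without the deepest injured cell. Here and below the log2 ratio is of injured over control with 10 CPM added to both sides.

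Its partner chain Col1a2 stood at 9970 CPM against 2923 CPM (log2 ratio 1.77, and 1.25 without the deepest cell). Col3a1, the type III collagen chain, differed less, with 5358 against 4316 CPM (log2 ratio 0.31). Dcn, the collagen-binding proteoglycan decorin, had UMIs in 6 of 11 injured and 19 of 47 control cells and a log2 ratio of -0.38, or -1.43 without the deepest cell. Type I collagen was thus higher in injured cells with and without that cell, and decorin was not. With the gene rule applied to thinned cells, which admits other cells, the log2 ratio was 0.95 for Col1a1 and 1.07 for Col1a2.

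The alveolar genes of the rule went the other way. Inmt (chr6:55170626-55175043, minus strand) had UMIs in 4 of 11 injured cells, with counts of 1, 5, 1 and 2 and 0 in the other 7. In control it had UMIs in 38 of 47 cells, with a median of 4 and a highest of 105. The B cells give the level that free RNA can reach, 0 of 62 injured and 7 of 341 control cells (2.05%). Thinned to 1000 UMIs, Inmt was seen in 0 of 7 injured and 26 of 35 control fibroblasts (74.3%), where 0 of 7 allows a share of up to 41.0% by the exact interval. Summed it came to 181 CPM (82.9 to 344) against 2936 CPM (2714 to 3172), so the control level was 16.2 times the injured one (8.48 to 35.6).

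Tcf21 (chr10:22817281-22820174, minus strand) had 5 UMIs in 2 injured cells and 94 UMIs in 23 control cells, 101 against 428 CPM. Pdgfra, the receptor of platelet-derived growth factor, had 3 UMIs in 2 injured cells and 80 UMIs in 27 control cells, and its control level was 6.03 times the injured one (1.99 to 29.8). Its log2 ratio of -2.41 was -0.43 with the gene rule applied to thinned cells, which admits other cells. Mfap4, a microfibril protein, had 1974 CPM in injured and 2322 CPM in control cells, a log2 ratio of -0.23. It was -0.57 without the deepest cell, -0.97 with equal weights and -3.39 with the gene rule applied to thinned cells.

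Alveolar and adventitial fibroblasts were first told apart by the genes the design names, with Tcf21 or Inmt without Mfap5 for alveolar and Mfap5 without the other 2 for adventitial. By that rule the injured library had 3 alveolar and 4 adventitial cells, 2 with genes of both and 2 with neither. The control library had 21 alveolar and 3 adventitial cells, 18 with both and 5 with neither. The alveolar share was 27.3% in injured (6.02 to 61.0%) and 44.7% in control fibroblasts (30.2 to 59.9%). The adventitial share was 36.4% (10.9 to 69.2%) and 6.38% (1.34 to 17.5%). The intervals of either pair overlapped.

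Depth differed between the classes. The 18 control cells with both kinds of gene had a median of 5400 UMIs, while the 21 alveolar ones had 1051. Thinned to 1000 UMIs, which leaves out 4 injured and 12 control cells below that depth, 0 of 7 injured and 18 of 35 control cells were alveolar (51.4%), and 5 of 7 injured and 2 of 35 control cells were adventitial (5.71%). The intervals of the thinned adventitial shares did not overlap, with 71.4% (29.0 to 96.3%) for injured and 5.71% (0.700 to 19.2%) for control.

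A marker pair of single genes is a thin basis, and the control adventitial class shows it. Of its 3 cells, those of 5316 and 6540 UMIs carried 29 and 50 UMIs of Hhip, the inhibitor that binds Hedgehog ligands, with only 2 and 3 UMIs of Dcn and none of Pi16, Clec3b or Mfap4. Another control cell, of 3173 UMIs and in neither class, had 22 UMIs of Hhip and 1 of Dcn. These 3 cells were picked out after their values were seen. They also held 7, 10 and 10 UMIs of Enpp2, the lysophospholipase autotaxin, and they had 31 to 171 UMIs of Mgp. Hhip had 114 UMIs in 7 control fibroblasts and 0 in the 11 injured ones. The remaining cell of the class, of 2533 UMIs, had 35 UMIs of Dcn and 2 of Pi16.

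Cells were therefore also divided by the larger summed count of the other alveolar or adventitial list genes (Npnt, Limch1, Itga8 and others against Pi16, Clec3b, Cd34 and others), leaving out Tcf21, Inmt and Mfap5. This division was added after the first one had been seen. It gave 4 alveolar-list, 5 adventitial-list and 2 undecided cells in the injured library and 23, 22 and 2 in the control library. The adventitial-list share was then 45.5% in injured (16.7 to 76.6%) and 46.8% in control fibroblasts (32.1 to 61.9%), so the excess of adventitial cells in the injured library was not seen at full depth. Thinned, the same division gave 5 of 7 injured (71.4%) and 20 of 35 control cells (57.1%) as adventitial-list and 0 of 7 and 14 of 35 (40%) as alveolar-list. Of the 18 control cells with both kinds of gene, 12 fell to the adventitial and 6 to the alveolar side, and all 18 carried Inmt.

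**Figure D2:**
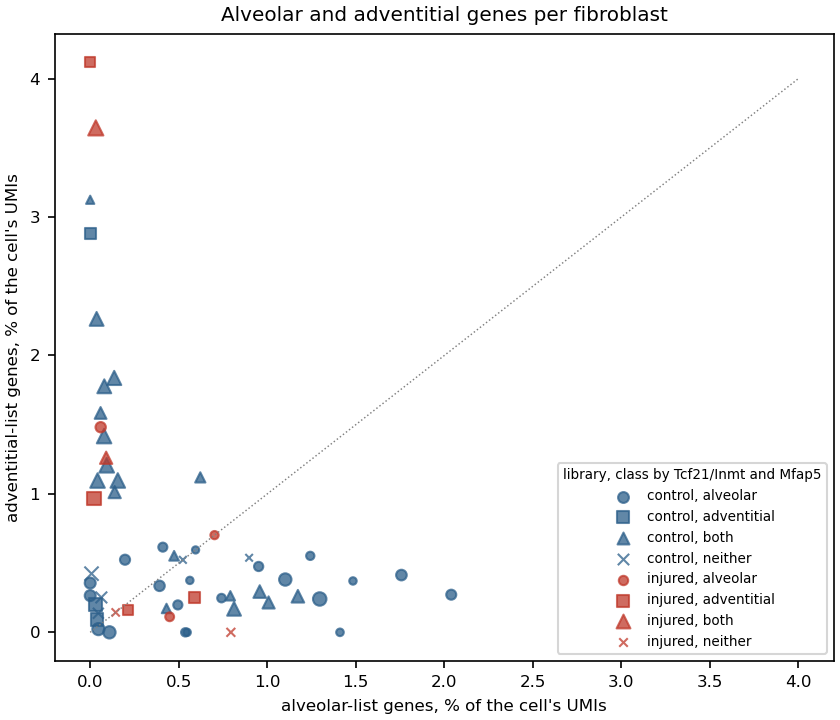
Summed UMIs of the alveolar-list genes (x axis) and of the adventitial-list genes (y axis) as a percent of each cell's UMIs, 1 point per fibroblast, red for injured and blue for control, with the marker's shape for the class by Tcf21, Inmt and Mfap5 and its size growing with the cell's UMIs. The points lie along the 2 axes, and control cells with both kinds of gene (triangles) are on either arm.

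Dcn and Inmt were read across the list division as a description, since both chose the cells and neither was in the genes that divided them. In control Dcn had 1702 UMIs in adventitial-list cells (10901 CPM, 10389 to 11431) and 2 in alveolar-list cells (32.0 CPM, 3.88 to 116). In injured cells it had 293 UMIs (6941 CPM) and 2 UMIs (332 CPM). Inmt was at 7301 CPM in control alveolar-list and 1178 CPM in control adventitial-list cells, so it was present on both sides but higher on the alveolar one. In injured alveolar-list cells Inmt had 5 UMIs, all in 1 of 4 cells (829 CPM, 269 to 1935), and in injured adventitial-list cells 3 UMIs (71.1 CPM, 14.7 to 208). Within each side, then, Inmt was lower in the injured library, though the injured alveolar-list cells gave only 6030 UMIs in all.

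The other genes of the rule were read in the same 4 sums. Col3a1 was at 5630 CPM in adventitial-list and 1073 CPM in alveolar-list control cells, and at 5923 and 1658 CPM in injured ones. Col1a1 followed with 2728 and 785 CPM in control and 12201 and 3151 CPM in injured cells. Mfap4 leaned to the alveolar side in control, with 4227 against 1499 CPM, and had 2 UMIs in the injured alveolar-list cells. Hsd11b1, which turns inactive glucocorticoid into its active form, had 96 UMIs in control alveolar-list cells and 21 in adventitial-list ones, against 0 and 1 in injured cells. Mettl7a1, a methyltransferase-like protein of lipid droplets, had 80 and 18 UMIs in control and none in injured cells.

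Over all genes the smaller classes by Tcf21, Inmt and Mfap5 were compared within each library, without a test because the 4 sums held only 3, 4, 21 and 3 cells. Of 516 genes with at least 20 counts, 33 were at least 2-fold higher in alveolar cells in both libraries (6.4% of those tested) and 30 in adventitial cells (5.81%). Of the 7 tested alveolar-list genes other than Tcf21 and Inmt, 4 were among the 33, namely Npnt, Limch1, G0s2 and Spon1. Npnt, the nephronectin of the alveolar basement membrane, had 94 UMIs in alveolar and 0 in adventitial control cells, and 2 and 2 in injured cells with 607.9 against 133 CPM. Limch1, a binder of actomyosin, had 49 and 0 UMIs in control and 3 and 5 in injured cells.

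On the adventitial side 2 of 7 tested list genes other than Mfap5 were among the 30. Pi16, a secreted peptidase inhibitor-like protein, had 0 UMIs in alveolar and 52 in adventitial injured cells, and 0 and 2 in control cells. Clec3b, the plasminogen-binding tetranectin, had 0 and 6 UMIs in injured and 14 and 31 in control cells. Ly6a, the Sca-1 antigen and a member of the adventitial list, lay on the other side, with 8 UMIs in alveolar and 4 in adventitial injured cells and 13 and 0 in control cells. Dcn was among the 30, with 39 of its UMIs in injured adventitial and 2 in injured alveolar cells, and 40 and 2 in control. These counts are small and share their cells, so they describe these 31 cells only.

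Between the libraries, 2220 genes had at least 20 counts over the fibroblasts of both. Of these, 205 were at least 2-fold higher in injured fibroblasts (9.23%) and 510 at least 2-fold lower (23%), 32.2% in all, with a median log2 ratio of -0.23. Without the deepest injured cell 232 of 2034 were higher (11.4%) and 584 lower (28.7%), 40.1% in all, and 140 of the 205 and 395 of the 510 kept their call. With each cell given the same weight 130 of the 205 and 372 of the 510 kept it, and 110 and 338 kept it under both changes. Scaling by size factors moved the median over all tested genes by 0.17 on the log2 scale, and the split then became 266 higher and 408 lower.

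**Figure D3:**
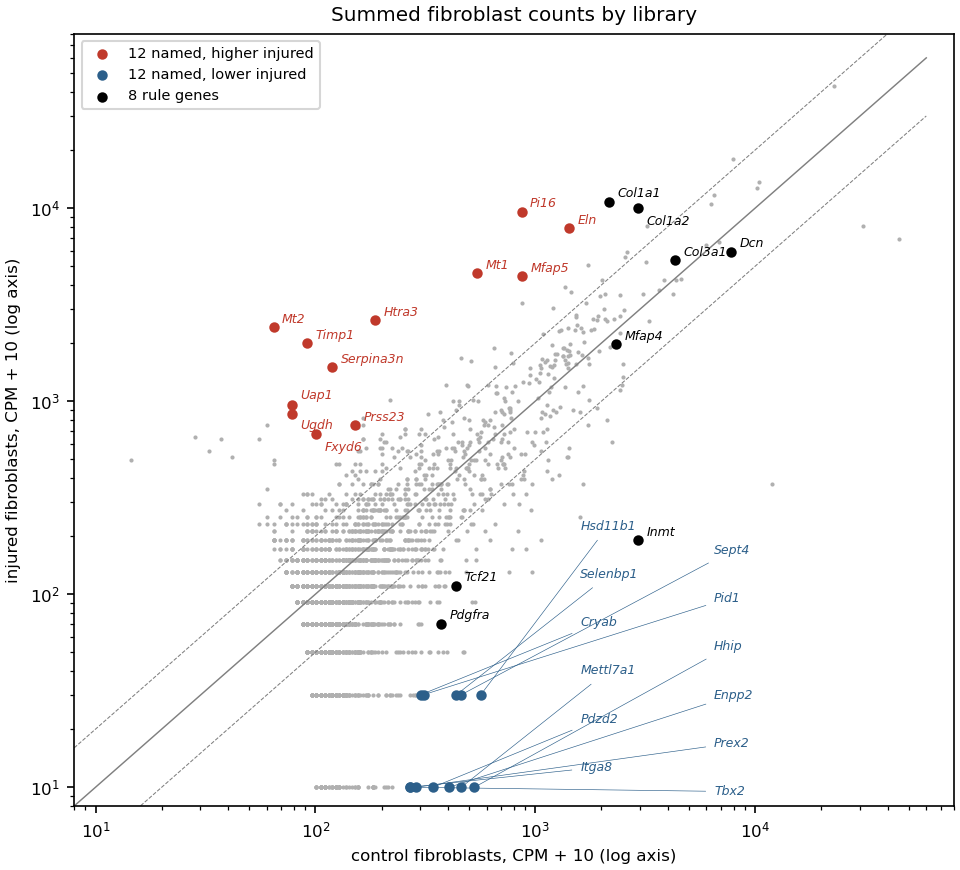
Summed fibroblast counts per gene as CPM plus 10 in the control library (x axis) and the injured library (y axis), both on log axes, for 2220 genes with at least 20 counts over both; the solid line marks equal levels and the dashed lines 2-fold. The 12 named higher genes, with Mt2, Timp1 and Pi16 farthest up, are in red, the 12 named lower genes, at 0 or 1 injured UMI, in blue, and the 8 rule genes in black.

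The genes named next are the 12 highest and 12 lowest ratios among those with at least 50 counts, 746 genes of which 11.3% were higher and 19.6% lower. Mt2, a metallothionein, one of the small proteins that bind zinc and copper, had the highest ratio. It had 119 UMIs in 8 of 11 injured cells, from 0 over a median of 2 to 92, and 12 UMIs in 3 of 47 control cells with a highest of 9. Its level was 2397 CPM against 54.6 CPM, 43.9-fold higher (24.2 to 87.3), and the log2 ratio of 5.22 was 4.11 without the deepest cell. Mt1 had 228 UMIs in 8 injured cells and 117 in 7 control cells, where 1 cell held 76, and a log2 ratio of 3.08 (1.87 without the deepest cell). The same 8 injured cells held both genes and most control cells held neither, though the ranges overlapped at 0. In the other kept cells of the libraries Mt2 stood at 129 CPM in injured and 40.2 CPM in control.

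Timp1, the inhibitor of matrix metalloproteinases, had 1, 0, 2, 0, 2, 4, 1, 5, 0, 21 and 63 UMIs in the 11 injured cells from the shallowest to the deepest. In control cells it had UMIs in 7 of 47, with a highest of 6. It was 24.3-fold higher in injured fibroblasts (14.6 to 42.7), with a log2 ratio of 4.45, or 4.02 without the deepest cell. Serpina3n, a secreted protease inhibitor of the acute phase, had 74 UMIs in 6 injured and 24 in 11 control cells (log2 ratio 3.65, and 3.28 without the deepest cell). Both inhibitors were thus higher with and without that cell. In the other kept cells Timp1 stood at 114 CPM in injured and 1.78 CPM in control and Serpina3n at 24.5 and 1.16 CPM, and Timp1 had a UMI in 0 of 62 injured and 3 of 341 control B cells (0.880%). With the estimated free RNA subtracted, the log2 ratio was 4.42 for Timp1 and 3.62 for Serpina3n.

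Eln had UMIs in 9 of 11 injured cells, with a median of 17 and a highest of 151, and in 24 of 47 control cells, with a median of 1 and a highest of 54. Per 10000 UMIs the medians were 65.9 and 0.744, and the ranges overlapped. Its log2 ratio of 2.46 became 2.78 without the deepest cell and 3.64 with equal weights. Among the 11 injured cells the higher elastin was thus not confined to 1 of them. With the gene rule applied to thinned cells, which admits other cells, Eln had a log2 ratio of only 0.37. Mfap5 (chr6:122505845-122529290), which also defined a class, had a log2 ratio of 2.35, or 1.33 without the deepest cell. With the rule on thinned cells it was 0.063.

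Other named genes leaned on the deepest cell. Pi16 (chr17:29317680-29330593) had 476 UMIs in 4 injured cells, of which that cell held 422, and 188 UMIs in 10 control cells, so its log2 ratio of 3.47 was 1.36 without it. Free Pi16 RNA was also seen, with a UMI in 3 of 62 injured B cells (4.84%) and 3 of 341 control B cells (0.880%), against 36.4% and 21.3% of fibroblasts. Uap1 and Ugdh, which make the sugar nucleotides for hyaluronan, had log2 ratios of 3.61 and 3.45 and held 0.24 and 1.71 without the deepest cell, so Uap1 was 2-fold higher only with that cell included. Htra3, a secreted protease, went from 3.81 to 2.08. Fxyd6, a regulator of the sodium pump, and Prss23, a secreted protease, had log2 ratios of 2.74 and 2.32 from 33 and 37 injured UMIs.

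On the lower side, 7 of the 12 named genes had no UMI in any injured fibroblast, so their folds are bounds set by 3 counts over the injured sum. Hhip was at least 8.59-fold lower, but its 114 control UMIs were mostly in the 3 cells described above. Mettl7a1, with 99 UMIs spread over 23 control cells, was at least 7.46-fold lower. Enpp2 was at least 6.55-fold lower from 87 UMIs, of which 55 were in the control cell with Wt1. Pdzd2, a protein with PDZ domains, was at least 5.50-fold lower from 11 control cells, 1 of which held 65.8% of its 73 UMIs. Without the 3 control cells that went against the name, the bounds fell to 2.60-fold for Enpp2 and 1.85-fold for Pdzd2. Prex2, an exchange factor for Rac, was at least 4.60-fold lower from 22 cells.

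Tbx2, a transcription factor of lung mesenchyme, and Itga8, the integrin chain that binds nephronectin, each had 57 control UMIs, in 19 and 14 cells, and were at least 4.29-fold lower. The other 5 had 1 injured UMI each. Hsd11b1 had 122 UMIs in 28 of 47 control cells, and its control level was 27.6 times the injured one (4.86 to 1098). Sept4, a septin, was 22.4 times (3.92 to 893), Selenbp1, a selenium-binding protein, 21.2 times (3.72 to 848), Pid1, an adaptor in insulin signalling, 14.9 times (2.59 to 598) and Cryab, a small heat shock protein, 14.5 times (2.50 to 580.1). With the gene rule applied to thinned cells, which admits other cells, Cryab went from a log2 ratio of -3.32 to -0.24. By level, 10 of these 12 genes stood higher in alveolar-list than in adventitial-list control cells, among them Itga8, which is in the alveolar list, as did 46.6% of all tested genes.

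Gene lists place these genes in wider groups, each read against the 9.23% higher and 23% lower over all tested genes. The lists overlap and were chosen with earlier results of these data known. Of 10 tested alveolar fibroblast genes 0 were higher and 8 lower, with a median log2 ratio of -2.25, or -1.87 with the 2 genes at 0 set to their bound. Without the deepest cell 1 was higher and 6 lower, with a median of -1.76. Leaving out Tcf21 and Inmt, 6 of 8 were lower, with a median of -2.11. Npnt was lower with 121 against 747 CPM, Limch1 with 181 against 615 CPM and G0s2, an inhibitor of lipolysis, with 80.6 against 505 CPM, while the chemokine Cxcl14 stood at 322 and 278 CPM.

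Of 15 tested adventitial genes 8 were higher and 1 lower, with a median of 1.06. Without the deepest cell 6 were higher and 3 lower and the median was 0.39. Igfbp4, a binding protein for insulin-like growth factors, had 3041 against 1188 CPM and UMIs in 9 of 11 injured cells. Its log2 ratio of 1.35 was 0.14 with the gene rule applied to thinned cells and 1.14 without the deepest cell. Ly6a had 1873 against 637 CPM, a log2 ratio of 1.54 that was 0.13 without it. Clec3b stood at 2659 and 2058 CPM and Igfbp6 at 866 and 1065 CPM, so the list did not move as a block. Ogn, the proteoglycan osteoglycin, was the lower one, with 161 against 774 CPM. Though Ogn counted for the adventitial side of the list division, it stood higher in alveolar-list than in adventitial-list cells of both libraries. The levels were 1217 against 583 CPM in control and 498 against 118 CPM in injured cells. Without the deepest cell the 3 lower genes were Igfbp6 at a log2 ratio of -2.63, Clec3b at -1.55 and Ogn at -1.40.

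Collagens leaned higher. Of 14 tested collagen genes 5 were higher and 1 lower with a median of 0.68, and without the deepest cell 8 were higher and the median was 1.24. Leaving out the 3 rule genes, 3 of 11 were higher and the median was 0.50. Beside type I, these were Col5a1, which nucleates collagen fibrils, Col4a1 of basement membranes and Col16a1, named after their values were seen. Col5a1 had UMIs in 8 of 11 injured and 12 of 47 control cells and a log2 ratio of 1.76, or 1.98 without the deepest cell. Col6a1 was level at 543.8 and 546 CPM, and Col14a1 stood at 765 and 578 CPM. The lower one, Col13a1, a transmembrane collagen of alveolar fibroblasts, had 26 control and 0 injured UMIs.

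Enzymes that process and crosslink collagen were 6 of 12 higher and 1 lower, with a median of 0.73, and without the deepest cell 5 and 4, with a median of 0.26. Lox, the lysyl oxidase that starts crosslinks in collagen and elastin, had 31 UMIs in 6 of 11 injured cells and 10 UMIs in 7 of 47 control cells, a log2 ratio of 3.51 and of 4.16 without the deepest cell. It was named after its values were seen, and 19 of its injured UMIs were in the cell with Acta2. Its relative Loxl1 had 1188 against 482.5 CPM, Adamts2, which trims procollagen, 786 against 369 CPM and the collagen chaperone Serpinh1 584 against 979 CPM. Pcolce2, an enhancer of procollagen cleavage, was lower with 363 against 1639 CPM.

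Elastic fibre and matrix glycoprotein genes divided, with 8 of 26 higher and 7 lower and a median of -0.27. Sparc, a collagen-binding protein, had UMIs in 10 of 11 and 40 of 47 cells and stood at 8037 against 3209 CPM (log2 ratio 1.32, and 1.11 without the deepest cell). Ltbp4 and Sparcl1 were lower, with log2 ratios of -1.31 and -1.63, the second -0.70 without that cell. Efemp1, a fibulin named after its values were seen, had 47 UMIs in 19 control cells and none in injured cells, at least 3.54-fold lower.

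Of 10 proteoglycan genes 3 were higher and 2 lower, with a median of -0.01 that was -1.41 without the deepest cell. Bgn, the small proteoglycan biglycan, had 2981 and 2035 CPM, and Hspg2, the basement membrane proteoglycan perlecan, was higher with 665 against 191 CPM. Prelp, a matrix anchor, was lower with 121 against 473 CPM, and all 6 of its injured UMIs were in the deepest cell.

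**Figure D4:**
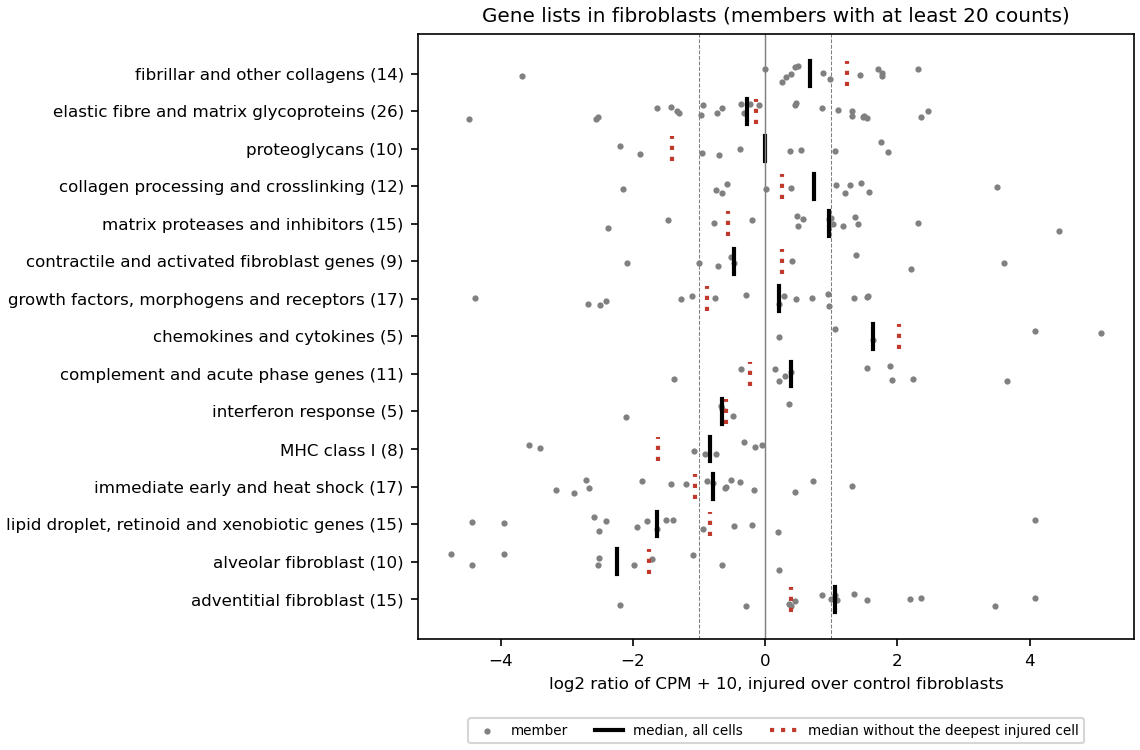
Log2 ratio of CPM plus 10 in injured over control fibroblasts (x axis) for each tested member (grey points) of 15 gene lists (rows, with the number of tested members), the list median (black bar) and the median without the deepest injured cell (dotted red bar); dashed lines mark 2-fold. The alveolar list lies lowest with a median of -2.25, and the bars of the protease and proteoglycan lists are far apart.

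Matrix proteases and their inhibitors had 6 of 15 higher and 2 lower and a median of 0.97 that changed sign to -0.56 without the deepest cell. Timp3, an inhibitor held in the matrix, had 5902 against 2613 CPM and log2 ratios of 1.17 and, without that cell, 1.34. With equal weights it was 0.64, and with the gene rule applied to thinned cells, which admits other cells, -0.54. Mmp2, a gelatinase, had log2 ratios of 1.03 and 1.12, but 0.94 with equal weights and -0.12 with the rule on thinned cells. Adamts1, a protease of proteoglycans, turned from 1.36 to -2.13, with its 28 injured UMIs in 2 cells. Mmp3, stromelysin, had 222 and 387 CPM, a log2 ratio of -0.78 that was -2.96 without the deepest cell, and Timp2 1752 and 1243 CPM.

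Chemokines and cytokines had few tested members, 4 of 5 higher and 0 lower with a median of 1.63, and 5 of 5 without the deepest cell. Cxcl12, which draws and holds leukocytes and progenitors, had 60 UMIs in 4 injured cells (0 in 7, then 3, 3, 30 and 24) and 84 UMIs in 16 control cells, 1209 against 382 CPM. Ccl8, a monocyte attractant, had 24 UMIs in 3 injured cells and 1 UMI in control, and the alarmin Il33 27 UMIs in 3 and 5 UMIs in 2. Ccl11, eotaxin, had 9 UMIs in 3 injured and 18 in 6 control cells. Each of these rests on 3 or 4 injured cells.

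Complement and acute phase genes had 5 of 11 higher and 1 lower with a median of 0.39, and without the deepest cell 2 and 1 with a median of -0.22. C3, the central complement protein, had 159 UMIs in 6 injured cells, 120 of them in the deepest, and 188 in 19 control cells (log2 ratio 1.89, and 0.90 without that cell). Serping1, the C1 inhibitor, stood at 2336 and 1785 CPM, C4b at 624 and 537 CPM and C1s1 at 604.3 and 542 CPM.

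Contractile and activated fibroblast genes were 3 of 9 higher and 2 lower, with a median of -0.47 that was 0.26 without the deepest cell. Acta2 had 25 UMIs in 3 injured cells, 22 of them in 1, and 7 UMIs in 5 control cells. Tagln had 50 UMIs, 49 of them in that same cell. Cald1, which sits on actin in many cells, had 403 and 560 CPM, Ccn2 201 and 337 CPM and Tpm1 141 and 205 CPM. A raised contractile signal was thus seen in 1 of 11 injured fibroblasts, a cell that 8 further excluding genes removed.

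Growth factors, morphogens and their receptors had 3 of 17 higher and 6 lower and a median of 0.22, or -0.88 without the deepest cell. Igfbp7 stood at 2941 and 2531 CPM and Igfbp5 at 1007 and 510 CPM. Igf1, a growth factor for epithelium and fibroblasts named after its values were seen, had UMIs in 8 of 11 injured and 17 of 47 control cells and log2 ratios of 1.55 and, without the deepest cell, 2.51. Igfbp3 had 44 UMIs in 15 control cells and none in injured ones, at least 3.31-fold lower. Wnt5a and Bmp4, ligands that pattern lung mesenchyme, had 1 injured UMI each against 40 and 35 in control. These 3 genes too were named after their values were seen.

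Lipid droplet, retinoid and xenobiotic genes, typical of alveolar fibroblasts, were 10 of 15 lower and 1 higher with a median of -1.64. Without the deepest cell 6 were lower and the median was -0.83. Gstm1, a glutathione transferase, had UMIs in 5 of 11 and 38 of 47 cells and 161 against 901 CPM (log2 ratio -2.41, and -2.08 without the deepest cell). Fmo2, a flavin monooxygenase of lung, had 423 against 1124 CPM, a log2 ratio of -1.39 that was -0.68 without it. Apoe stood at 1893 and 2176 CPM and Gpx3 at 564 and 788 CPM. The list shares Inmt, G0s2 and Ces1d with the alveolar one.

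Immediate early and heat shock genes, which tissue digestion is known to switch on, had 7 of 17 lower and 1 higher and a median of -0.79. Without the deepest cell 9 were lower, and with equal weights 3 were, with a median of -0.69. Fos stood at 604.3 against 2231 CPM, Junb at 786 against 2112 CPM and Btg2 at 242 against 1584 CPM, the last with a log2 ratio of -2.66 that was -0.70 with equal weights. Egr1 stood at 806 and 1052 CPM. How far handling differed between the libraries was not tested. Interferon response genes had 0 of 5 higher and 1 lower, Ifi27, with 60.4 against 291 CPM, and Ifitm3 had 1108 and 1552 CPM. Class I antigen presentation genes had 0 of 8 higher and 3 lower with a median of -0.83, or -0.71 with the genes at 0 set to their bound, and without the deepest cell 5 were lower with a median of -1.63. Without the 3 control cells that went against the name, 2 were lower with a median of -0.43. H2-D1, the member with the most counts, had 363 against 774 CPM, and the other 2 lower ones, H2-Q4 and Psmb8, had 24 and 21 control UMIs and none in injured cells. The rest were within 2-fold, with log2 ratios of -0.16 for B2m, -0.90 for H2-K1, -0.75 for H2-T23, -0.04 for Tapbp and -0.31 for H2-T22. Of the cell cycle list only Tubb5 had enough counts, with 363 and 291 CPM.

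Because adventitial cells hold most of the UMIs in both libraries, the named genes were also read within the adventitial-list cells alone, 5 injured cells of 42211 UMIs and 22 control cells of 156135 UMIs. There Timp1 had 90 and 17 UMIs, 2132 CPM (1715 to 2621) against 109 CPM (63.4 to 174), with a log2 ratio of 4.17 and of 3.76 without the deepest cell. Serpina3n had log2 ratios of 3.70 and 3.55, Mt2 of 4.82 and 2.93, Eln of 1.98 and 2.04, Lox of 3.62 and 4.51 and Col1a1 of 2.16 and 1.17. Dcn gave -0.65 and -1.44, and Gsn, the actin-severing protein gelsolin and the most abundant of these transcripts in control at 37833 CPM, gave -2.01 and -1.60. Mt1 gave 2.68 but 0.86 without the deepest cell, and Mgp 0.66 and -0.66. Among adventitial-list cells, then, the protease inhibitors, Mt2, elastin and lysyl oxidase were more than 2-fold higher in the injured library. Gelsolin was more than 2-fold lower, each with and without the deepest cell. Type I collagen was also more than 2-fold higher both ways, as a description only, since its genes chose the cells. Without it 4 injured cells and 16912 UMIs remain, of which the cell with Acta2 and Tagln holds 55.6%. Leaving that cell out too, which was added after its values were seen, 3 cells of 7511 UMIs gave log2 ratios of 2.77 for Timp1 (6 UMIs), 4.72 for Serpina3n, 4.09 for Mt2 (11 UMIs), 1.98 for Eln, 1.91 for Col1a1, -1.26 for Gsn and 2.33 for Lox, the last from 2 UMIs. The adventitial-list cells are mixed. On the control side they include the cell with Wt1 and the 3 with the most Hhip, and on the injured side a cell of 1687 UMIs with no Pi16, Clec3b, Cd34 or Mfap5. That injured cell and the one with Acta2 and Tagln were also removed by 8 further excluding genes.

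In the alveolar-list cells, 4 injured ones of 6030 UMIs against 23 control ones of 62456 UMIs, Eln had 114 UMIs in 3 cells against 71 in 9, which is 18906 CPM (15595 to 22711) against 1137 CPM. A single injured cell of 2384 UMIs held 93 of the 114, and the other 3 cells came to 5760 CPM (3565 to 8804). That cell and the one of 1874 UMIs are adventitial by Tcf21, Inmt and Mfap5, and the control side includes the cells with Scgb1a1 and Cox4i2. Mt2 had 13 UMIs in 3 of 4 injured cells and 0 in control, Timp1 8 UMIs in 3 cells against 1, and Col1a1 19 UMIs in 2 cells against 49 in 15. Gsn had 0 UMIs in the 4 injured cells (0 to 612 CPM by the exact interval) against 863 UMIs in 21 of 23 control cells (13818 CPM, 12911 to 14771). The higher elastin, Mt2 and Timp1 levels were thus present on both sides of the list division, on the alveolar side in the same 3 cells. The third of these, of 881 UMIs, was in neither class by Tcf21, Inmt and Mfap5. The remaining injured cell, of 891 UMIs and alveolar by both divisions, had 0 UMIs of Eln, Mt2 and Timp1. These levels were therefore not seen in an injured cell that both divisions call alveolar.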

How the data were processed

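Whole-lung digests were sequenced as 2 libraries with 10x 3′ v3 chemistry, per the labels' protocols. The authors deposited UMI counts for 32285 genes in each barcode, unnormalized; the file headers name Cell Ranger 4.0.0. The submitters' processing notes name DESeq2 (1.26.0, 1.28.1), featureCounts 1.6.3, STAR 2.7.2c and the builds GRCm38 and mm10 without saying which served these libraries, and how barcodes were called as cells is not given in the sources used here. In 38 cases a symbol stands on several gene IDs, and each of these IDs was kept as its own entry, not summed. Gene positions are from GENCODE on GRCm38.

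Counts were summed over fibroblasts per library with Python 3.11.15, numpy 2.4.6 and scipy 1.17.1 and given as CPM. Log2 ratios add 10 CPM, genes needed 20 counts, and a 2-fold ratio was a call by size. Intervals are exact (Poisson, Clopper-Pearson, or conditional for ratios) at 95% and cover counting error only. The planned edgeR fit of alveolar against adventitial sums needed 10 cells in each sum and was not run. Thinning drew 1000 UMIs per cell. Background B cells carried at least 2 of 3 B cell markers. Doublets were scored from simulated pairs of cells. Genes in the text are the 12 highest and 12 lowest ratios (at least 50 counts, a level in fibroblasts at least that of other cells, the 8 rule genes, mitochondrial, ribosomal and sex-linked genes left out), the 15 leading genes against other cells, and up to 6 members of each list with the most counts; 2 list members are not reported here. The members, lists and rules were chosen with earlier results of these data known. The scripts were tested on simulated data. Alternatives covered the gene rule, filters, thinning, weights, scaling, pseudocount and thresholds.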

Additional observations from a re-analysis of the deposited data

Results flagged for a closer look

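Cxcl14, a chemokine of the alveolar list, went in opposite directions between alveolar and adventitial fibroblasts (by Tcf21, Inmt and Mfap5) in the 2 libraries. In control it had 25 UMIs in 21 alveolar and 1 UMI in 3 adventitial cells, a log2 ratio of 2.94. In injured cells it had 1 UMI in 3 alveolar and 11 UMIs in 4 adventitial cells, a log2 ratio of -1.24. The injured value lay 4.18 below the control value on the log2 scale (-4.18), and this difference was not tested. By the list division, which uses Cxcl14 itself, it had 16 and 0 UMIs in alveolar-list and adventitial-list injured cells and 58 and 3 in control cells.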

How the results depend on the processing

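The 11 injured cells, 1 of which holds 51.0% of their UMIs, limit every ratio. No paired analysis was possible because each group is 1 library. The edgeR fit, its DESeq2, TMM and count-filter alternatives and the fit without the library block were not run, since no sum pair had 10 cells each. Over the alternatives 77 counts and shares stayed the same, 24 moved and 1 reversed. List medians gave 227, 11 and 2, and named genes 1389, 160 and 11. A gene count was the same within 1.5-fold of its main value. A share or log2 ratio was the same within the interval of its main value, and a list median within the median bounds of its members. Unless stated, the cause of a change was not tested. The share of fibroblasts, injured minus control, was -1.54 points and ranged from -1.71 to -0.917.

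Genes higher in injured fibroblasts (205) came to 534 with the rule applied after thinning, 346 with equal cell weights, 84 and 407 with at least 50 and 10 counts, 1532 with no minimum, and 389 and 32 at 1.5-fold and 4-fold. Genes lower (510) came to 146 and 1131 at those counts, 3112 with no minimum, and 787 and 178 at those folds. Genes higher in alveolar cells (33) came to 53 and 13 with at least 2 and 4 of 8 marker genes, 12 without Tcf21 and Inmt in the rule, 157 after thinning first, 20 with 8 further excluding genes, 90 by list, and 80 without the injured library. Genes higher in adventitial cells (30) came to 213 after thinning first, 248 by list and 48 without the injured library. The alveolar share difference (-17.4 points) was -51.4 thinned, and the adventitial one (30.0 points) was 65.7 thinned and reversed to -1.35 by list.

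Thinning first, which reads the excluding genes in fewer UMIs, admitted other cells (15 injured, 345274 UMIs, and 40 control) and reversed the chemokine median to -0.29, the adventitial median to -0.53, and Enpp2 to 0.83, Ly6a to -1.21, Cxcl12 to -0.29, Ccl11 to -1.41, Adamts2 to -0.093, Btg2 to 0.050, Timp3 to -0.54 and Mmp2 to -0.12. That setting also brought Fos to -0.38, Junb to -0.30 and Loxl1 to 0.18. With 8 further excluding genes, which dropped the injured cells of 9401 and 1687 UMIs, Tagln reversed to -2.51. Adamts1 reversed to -2.13 without the deepest injured cell and to -1.02 with equal weights. Without the 3 control cells that went against the name, the median of the alveolar list was -2.37 and that of the adventitial list 0.94. C3 moved to 2.26 and Igfbp5 to 1.52, and Enpp2 went from -5.34 to -4.06 and Pdzd2 from -5.10 to -3.60. Without the deepest cell Clec3b moved to -1.55, Igfbp6 to -2.63, Mmp3 to -2.96 and Prelp, then at 0 UMIs, to -5.60. Subtracting free RNA left 104 of 104 named genes within their intervals. The setting without the deepest cell, that without the 3 control cells, the list division and the sums without 1 further injured cell were added after seeing the data.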
